A study of Arabidopsis thaliana with 6 samples.

Results

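A set of 50 Affymetrix probe sets read lower on day 4 of a drought treatment than on the days before and after it, in unopened flower buds of the Arabidopsis mutant anac019-1. They were chosen from the values themselves: in each of them the higher day 4 array lay at least 0.4 (log2) below the lowest of the 4 arrays of days 3 and 5. The distance between those arrays is called the gap here. Of 22746 probe sets, 52 (0.229%) had such a gap. AT4G27450 and AT3G15450, which belong to a separately described group, were left out of them, and none of those named was an organelle gene. Of the 50 remaining, 20 stand for 1 named gene, 1 for a pair of genes that it cannot tell apart (AT3G05165 and AT3G05160), and 29 carry no gene name in the annotation used. Whether an unnamed probe set reads an organelle gene was not checked. Because the values chose the members, their lower reading on day 4 is described without a test, and only day 5 against day 3 was tested.

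All plants were Col-0 carrying anac019-1 (SALK_096295), a single T-DNA line in which ANAC019, a gene for a NAC transcription factor, carries the insertion. They were grown at 16 h of light and 8 h of dark, were watered for 24 days until the main stem was about 1 cm high, and then received no water. After about 80 hours, which counts as day 3, the soil held near 35% of its water capacity and was kept there by daily watering. Buds were collected on days 3, 4 and 5, from plants labelled 28, 29 and 30 days after germination, and 2 arrays were run per day. Plant age therefore moves with the duration of drought, and wild-type or well-watered buds were not analysed here. The hour of sampling is not in the labels, and nothing says that replicates came from separate pots, so p-values reflect only how far these samples spread, and that spread may be technical.

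Unopened buds hold petals, stamens, carpels and developing pollen at several stages, and drought after bolting reaches all of them. Among the named members are enzymes with well-studied roles. Allantoinase opens the ring of allantoin during the breakdown of purines, a route by which plants recover nitrogen. GH3 enzymes of the group to which GH3.3 belongs join the auxin indole-3-acetic acid to amino acids and so lower the amount of free hormone. Cytochrome P450 enzymes, GDSL lipases and serine carboxypeptidase-like proteins form large plant families, many of whose members act in specialised metabolism, surface lipids or acyl transfer.

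Array medians lay between 6.97 and 7.03 on the log2 scale, as the authors' normalisation sets them. The 5 tapetum genes measured, which mark anthers, did not read alike. A9 (AT5G07230), AMS and SHT read above the array medians in every array. BHLH089 (AT1G06170) did so except in day 5 replicate 2, at 6.91. BHLH091 (AT2G31210) read below the medians in every array, at 4.68 to 5.05. By the limma fit over all probe sets, 114 of 22746 (0.501%) differed between days 3 and 4, 5020 (22.1%) between days 4 and 5, and 6548 (28.8%) between days 3 and 5. Both day 4 arrays were the lowest of all 6 in 1274 probe sets (5.6%), without regard to the size of the gap. The mirror rule, with day 4 at least 0.4 above every other array, held for 25 (0.11%).

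The gap of the 50 members ran from 0.40 to 1.08, with a median of 0.48. It reached 0.5 in 23 of them, 0.75 in 8 and 1.0 in 2. Day 4 lay below day 3 by a median of 0.71, where the median over all probe sets was -0.00, and day 5 lay above day 4 by a median of 0.92, against -0.04 over all. By day means, 10 members read at least 2-fold lower on day 4 than on day 3 and 21 at least 2-fold higher on day 5 than on day 4; 3 did both. Averaged over the members, the arrays read 7.41 and 7.37 on day 3, 6.54 and 6.57 on day 4, and 7.68 and 7.78 on day 5. The rule also favours probe sets whose replicates lie close together, yet the median difference between replicates of a day was 0.15 in the members and 0.16 over all. Members did not sit at the dim end of the arrays, since their mean levels ran from 4.66 to 10.50 with a median of 7.11, against 7.0 over all probe sets. In bulk buds, fewer cells of a type and less RNA per cell cannot be told apart.

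**Figure D1:**
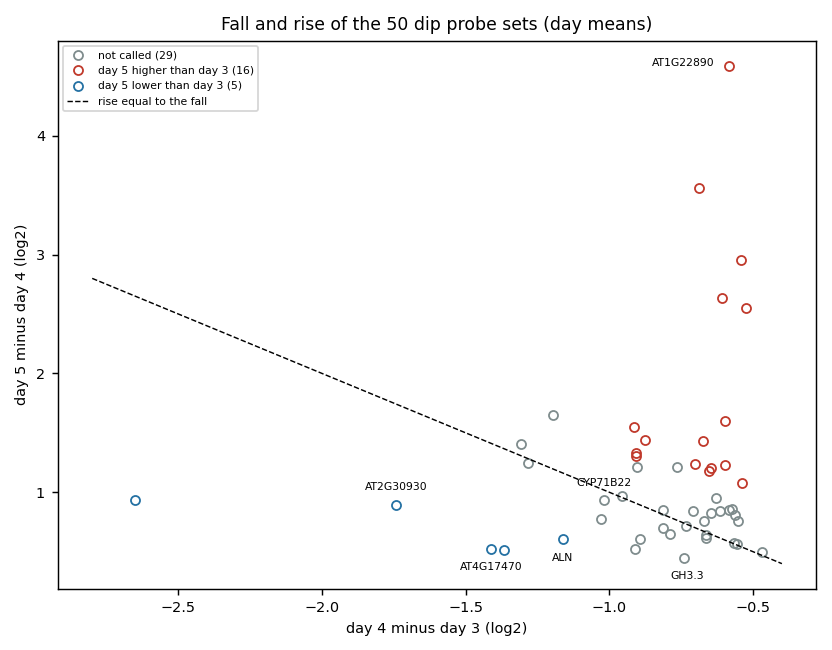
Each point is 1 of the 50 members; the x axis gives the day 4 minus day 3 difference and the y axis the day 5 minus day 4 difference, both of log2 day means. All members lie left of 0 and above 0, as the rule requires, with medians of -0.71 and 0.92. The dashed line marks a rise as large as the fall, and colours give the limma call for day 5 against day 3 (16 higher, 5 lower, 29 not called).

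Enzymes of nitrogen and hormone metabolism came with day 4 arrays well below those of day 3. ALN, the allantoinase, read 7.79 and 7.68 on day 3, 6.71 and 6.44 on day 4, and 7.16 and 7.20 on day 5. Day 4 was lowest, and the day 5 arrays regained part of the distance without reaching day 3. The day 4 mean was 44.7% of the day 3 mean. GH3.3, the auxin-conjugating enzyme, read 8.77 in both day 3 arrays, 8.02 and 8.04 on day 4, and 8.45 and 8.51 on day 5, again with day 5 between the other days. Its gap, 0.41, was among the smallest of the members.

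Several members are oxidising, reducing or methyl-transferring enzymes of families with varied substrates. CYP71B22, a cytochrome P450, read 6.53 and 6.28 on day 3, 5.36 and 5.41 on day 4, and 6.39 and 6.25 on day 5. Its arrays of days 3 and 5 overlapped, and its gap of 0.84 was the largest of the named genes. AT3G61210, annotated as a methyltransferase that uses S-adenosylmethionine, read 6.05 and 6.15, then 5.13 and 5.26, then 6.18 and 6.64. Both day 5 arrays were above both day 3 arrays, with a wide spread between them. AT2G29290, a short-chain dehydrogenase of the tropinone reductase-like kind, read 6.51 and 6.54, then 5.79 and 6.07, then 7.15 and 7.16, so that day 5 was highest.

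Hydrolases made up another part of the named members. AT4G17470, of a family of palmitoyl-protein thioesterase-like alpha/beta-hydrolases, read 6.44 and 5.95 on day 3, 4.89 and 4.68 on day 4, and 5.30 and 5.32 on day 5. The day 4 mean was 37.6% of the day 3 mean, and day 5 stayed below both day 3 arrays. AT1G29660, a GDSL lipase, read 5.66 and 5.62, then 4.89 and 4.60, then 5.40 and 5.32. AT4G38690, related to phosphatidylinositol-specific phospholipases C, read 7.46 and 7.45, then 6.89 and 6.88, then 7.64 and 7.84. The lipase ended below its day 3 arrays and the phospholipase-like gene above them. The serine carboxypeptidase-like gene scpl31 read 5.11 and 5.50, then 4.51 and 4.53, then 4.97 and 5.37, with days 3 and 5 overlapping.

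Genes of cell wall and sugar handling included a pectate lyase-like gene, AT5G04310, of a family that cuts the pectin of cell walls. It read 6.51 and 6.24 on day 3, 5.77 and 5.68 on day 4, and 6.58 and 6.52 on day 5, the last day being highest by a small margin. AT3G52060, a glycosyltransferase related to those that branch sugar chains (AtGnTL), read 8.75 and 8.87, then 8.13 and 8.16, then 8.82 and 8.75. Its day 3 and day 5 arrays lay within 0.12 of each other. The probe set shared by AT3G05165 and AT3G05160, both annotated as sugar transporter-like proteins of the major facilitator superfamily, read 7.50 and 7.56, then 7.08 and 6.90, then 8.05 and 8.08. Which of the pair it follows cannot be told.

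A pair of members belong to families that act on or through other proteins. AT4G21870 encodes an HSP20-like protein, of the small heat shock proteins that bind unfolding proteins. It read 8.34 and 8.60 on day 3, 7.57 and 7.55 on day 4, and 8.01 and 8.14 on day 5, so that the last day lay between the others. AT2G30600 carries a BTB/POZ domain, which in many plant proteins binds cullin ubiquitin ligases. Its probe set read 7.72 and 7.47, then 6.83 and 6.95, then 7.83 and 7.63, with days 3 and 5 overlapping.

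The other 7 named members have no role stated here. AT2G30930 had the lowest day 4 reading relative to day 3 of the named genes: 6.93 and 7.02 on day 3, 5.26 and 5.20 on day 4, and 6.05 and 6.21 on day 5. Day 4 was 29.9% of day 3. AT1G22890 had the highest rebound: it read 4.64 and 4.51, then 4.06 and 3.93, then 8.64 and 8.52. Day 5 exceeded every other array of this gene by a wide margin, and its day 4 mean lay below 4.37, the first quartile of all values, where RMA compresses differences. AT1G25275 read 10.59 and 10.50, then 9.87 and 9.92, then 10.94 and 11.20.

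In the remaining genes the arrays of days 3 and 5 overlapped. AT3G05900, annotated as related to neurofilament proteins, read 6.82 and 6.51, then 5.85 in both arrays, then 6.44 and 6.66. AT4G36500 read 5.26 and 5.02, then 4.31 and 4.50, then 5.15 and 5.11. AT5G28430 read 5.41 and 5.31, then 4.74 and 4.87, then 5.42 and 5.32. Their day 4 arrays lay below that shared range. AT3G01960, the other named gene below the first quartile on day 4, read 4.92 and 4.91, then 4.2 and 4.00, then 5.14 and 4.77.

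**Figure D2:**
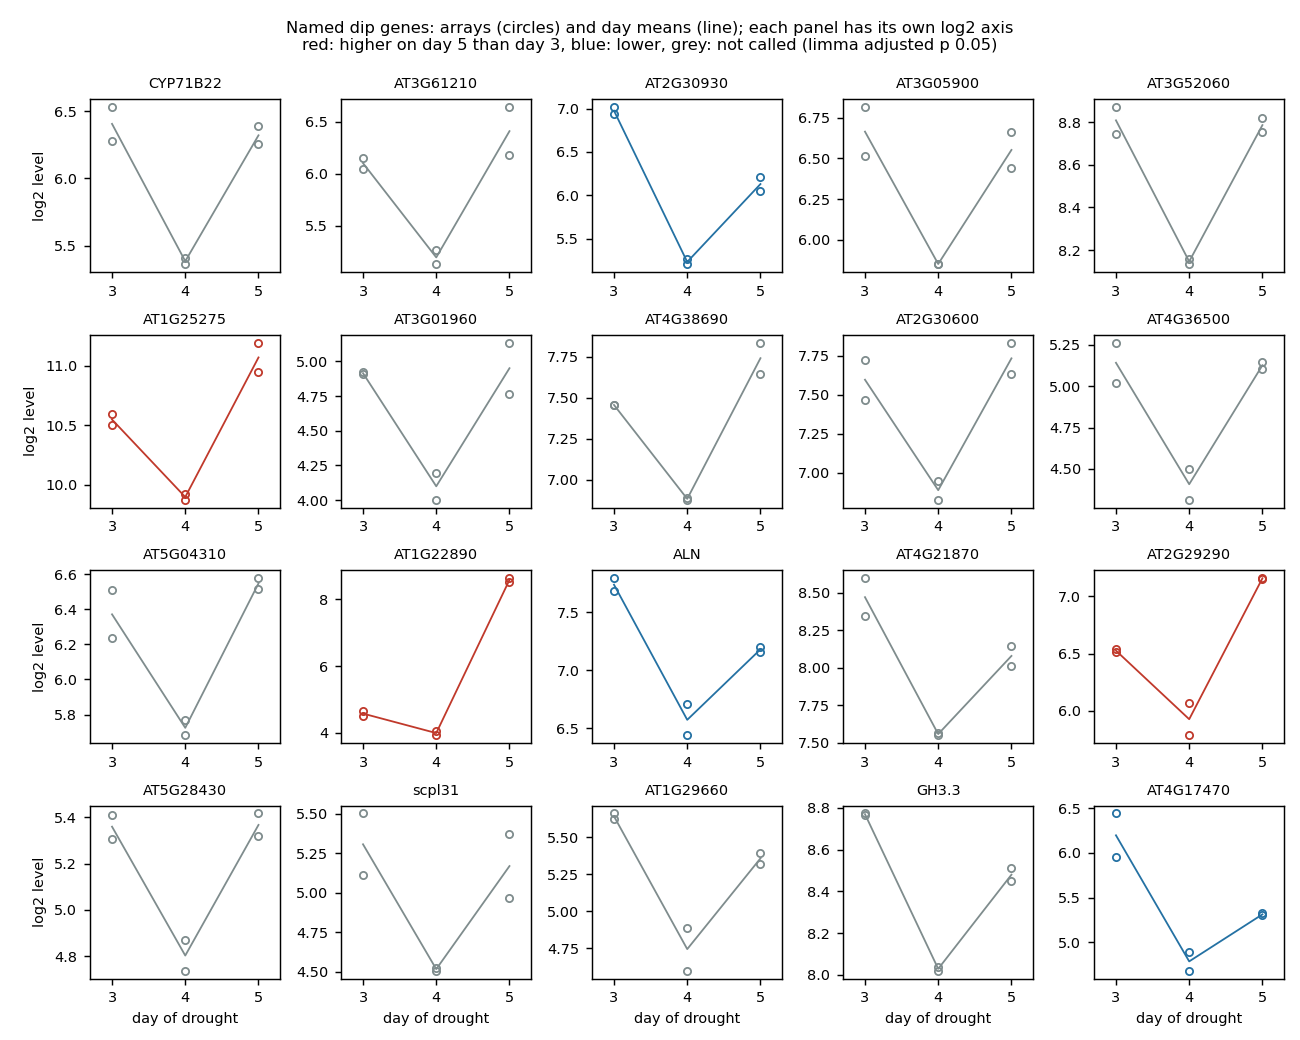
Each panel shows 1 of the 20 named genes, with the log2 level on the y axis, the day of drought on the x axis, a point for each array and a line through the day means; colours give the limma call for day 5 against day 3. Both day 4 points lie under all others in each panel, and the panel of AT1G22890 spans the widest range, from 3.93 to 8.64.

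The largest gaps were those of unnamed probe sets, although the median gap was 0.48 in the unnamed and 0.49 in the named members. The probe set 254331_s_at read 6.67 and 6.57 on day 3, 5.36 and 5.49 on day 4, and 6.89 and 7.27 on day 5, a gap of 1.08. For 246114_at, which read 9.74 and 9.69, then 8.24 and 8.57, then 9.58 and 10.05, it was 1.01. The former ended above both day 3 arrays, whereas in the latter days 3 and 5 overlapped. The probe set 267083_at read 7.91 and 7.54, then 4.89 and 5.27, then 5.90 and 6.12. Its day 4 minus day 3 difference, -2.65, was the lowest of all probe sets tested. The opposite form was seen in 262099_s_at, which read 5.51 and 5.73, then 5.02 and 4.84, then 8.37 and 8.61, with a small dip before a high day 5.

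The named genes nearest to the threshold on the inner side were AT4G17470, GH3.3 and AT1G29660, with gaps of 0.411, 0.412 and 0.428. On the outer side were TRM26, AT3G27770 and AT3G61260, with gaps of 0.397, 0.392 and 0.388. TRM26 read 7.39 and 7.10 on day 3, 6.46 and 6.52 on day 4, and 6.92 and 7.28 on day 5, a form like that of the members. Of the genes left out by name, AT4G27450 read 8.02 and 7.96, then 6.89 in both arrays, then 10.42 and 10.45. AT3G15450 read 8.76 and 8.91, then 7.97 and 7.58, then 11.74 and 11.81. AT2G20670 did not meet the rule, with a gap of 0.257.

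Whether the members came back to, above or below their day 3 level was compared on all 6 arrays with limma. The rule does not set the sign of day 5 minus day 3, but it used the same arrays. Since day 5 differed from day 4 in many more probe sets than day 3 did, choosing by the rule can itself favour a high day 5, so the members' counts are given beside those of all probe sets without reading a difference from them. Day 5 was higher in 16 of the 50 members, against 12.9% of all probe sets, and lower in 5, against 15.9% of all. The other 29 did not pass the test. The median difference was 0.19 in the members and -0.04 over all, and it was above 0 in 34 of 50 (68.0%), against 43.7% of all probe sets. Both day 5 arrays lay above both day 3 arrays in 25 members (26.3% of all) and below them in 9 (35.3% of all), and they overlapped in 16. Among all called probe sets 44.7% were higher. Centring each array on its poly-A spike-in controls moved that share to 6.87% and the members' counts to 6 higher and 21 lower. That centring shifted the median of all probe sets for day 5 minus day 3 by -0.50; the controls averaged 6.51 and 6.38 on day 3 and 7.03 and 6.87 on day 5. With that centring 21 of the 50 members still met the dip rule. Omitting day 3 replicate 2 left 10 members higher, and omitting day 5 replicate 2 left 8.

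Of the 20 named genes, 3 ended higher (12.9% of all probe sets), 3 lower (15.9% of all) and 14 did not pass. Their median difference was -0.02, against 0.19 in all 50 members, and it was above 0 in 9 of the 20 (45%). AT1G22890 rose by 4.01 ± 0.12 (SE; limma adjusted p = 8.80e-06) from day 3 to day 5, or 16.1-fold. AT2G29290, the reductase-like gene, rose by 0.63 ± 0.13 (adjusted p = 0.0086). With poly-A centring it did not pass. AT1G25275 rose by 0.52 ± 0.13 (adjusted p = 0.0177). That call was lost with poly-A centring, on omitting day 3 replicate 2 (adjusted p = 0.0682) and on omitting day 5 replicate 2 (adjusted p = 0.104). The probe set shared by AT3G05165 and AT3G05160 was higher by 0.54 ± 0.12 (adjusted p = 0.0111), a call lost with poly-A centring and on omitting day 5 replicate 2 (adjusted p = 0.0572).

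The 3 named genes that ended lower were AT4G17470, AT2G30930 and ALN. The hydrolase AT4G17470 fell by 0.88 ± 0.17 (SE; limma adjusted p = 0.0073) from day 3 to day 5, and AT2G30930 fell by 0.85 ± 0.12 (adjusted p = 0.0018). Both passed in every alternative run. The allantoinase gene ALN fell by 0.56 ± 0.13 (adjusted p = 0.0153). That call was lost without day 3 replicate 1 (adjusted p = 0.065), day 5 replicate 1 (adjusted p = 0.0637) or day 5 replicate 2 (adjusted p = 0.0597).

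Among the 14 that did not pass, AT4G21870, the HSP20-like gene, was nearest, at -0.39 ± 0.13 (SE; limma adjusted p = 0.0562). Without day 3 replicate 1 it passed (adjusted p = 0.0357). GH3.3 stood at -0.29 ± 0.11 (adjusted p = 0.0807), AT4G38690 at 0.28 ± 0.12 (adjusted p = 0.11) and AT1G29660 at -0.28 ± 0.13 (adjusted p = 0.153). With poly-A centring the auxin-conjugating enzyme, at -0.79 (adjusted p = 0.0012), and the lipase, at -0.79 (adjusted p = 0.0018), passed as lower. In all, 10 of the 14 then passed as lower and none as higher. That centring shifted the median of all probe sets by -0.50, and only 6.87% of all calls were then higher. The count therefore goes with a shift of all probe sets, and nothing particular to these genes is read from it. AT3G61210 stood at 0.31 ± 0.16 (adjusted p = 0.213) and passed without day 5 replicate 1 (adjusted p = 0.0415). The smallest differences were those of AT5G28430 at 0.01, AT3G52060 at -0.02 and AT4G36500 at -0.02. Of all 29 members that did not pass, 14 had a 95% interval of the difference inside ±0.5. The 12 unnamed members that rose did so by 0.40 to 2.87, with 262099_s_at at the top (adjusted p = 2.77e-05). The 2 unnamed ones that fell did so by 1.71 (267083_at, adjusted p = 6.05e-04) and 0.85. The unnamed probe set with the largest gap, 254331_s_at, stood at 0.46 (adjusted p = 0.054) and passed without day 5 replicate 1 (adjusted p = 0.0214).

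**Figure D3:**
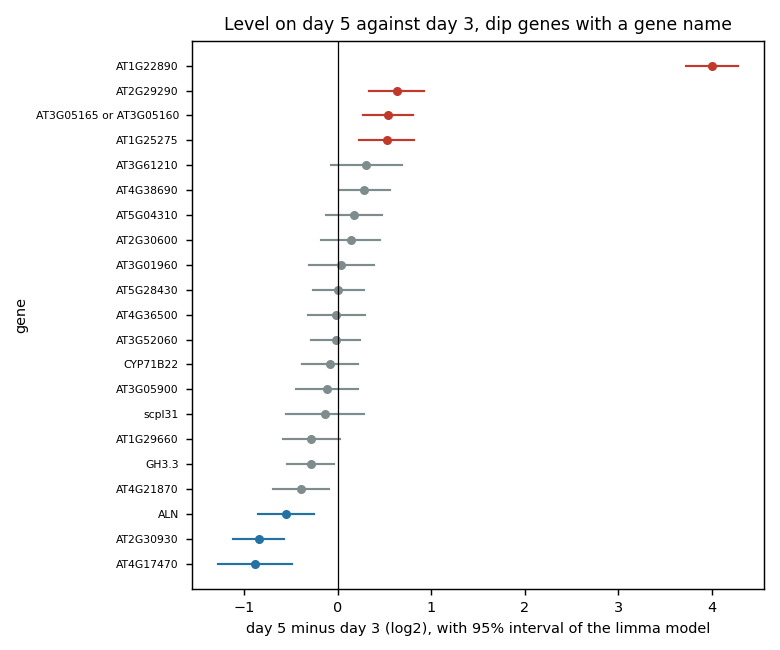
Points give the day 5 minus day 3 difference of log2 day means for the 20 named genes and the probe set shared by AT3G05165 and AT3G05160, with limma's 95% interval, before adjustment, as bars and colours for the adjusted call (red higher, blue lower, grey not called). AT1G22890 stands apart at 4.01, while the others lie between -0.88 and 0.63.

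For a pair of named members, another probe set of the same gene was on the array. The other probe set of AT2G30600, the BTB/POZ gene, read 5.88 and 6.12 on day 3, 5.49 and 5.50 on day 4, and 5.92 and 5.98 on day 5. Its day 4 arrays were also the lowest, with a gap of 0.38. Day 4 minus day 3 was -0.51 and day 5 minus day 4 was 0.46. These are given without a test, because the gene was chosen for its dip on the same arrays. The other probe set of AT5G04310, the pectate lyase-like gene, read 4.34 and 4.75, then 4.34 and 4.11, then 4.74 and 4.54. There a day 3 array matched the higher day 4 array to within 9.1e-04. Day 4 minus day 3 was -0.32 and day 5 minus day 4 was 0.41, likewise without a test. Its day 4 mean, 4.22, lay below 4.37, the first quartile of all values, where RMA compresses differences. The member probe set of this gene moved the same way by day means, by -0.65 and then 0.82. Whether the probe sets differ in form cannot be told at such a low level.

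Relatives of the members, chosen after the members were known and so given without a test, did not meet the rule. Of 17 other CYP71B genes measured, 2 had both day 4 arrays lowest, and the largest gap was 0.06 (CYP71B34). Of 22 other scpl genes, 1 did (scpl47, gap 0.10). Over all probe sets the share with both day 4 arrays lowest was 5.6%. Several of these CYP71B and scpl relatives read below 4.37, the first quartile of all values, in every array. CYP71B24, at 2.87 to 3.37, was among them although its day 4 arrays were lowest. RMA compresses differences there, so a dip in such genes could be missed.

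Of the 4 other GH3 genes measured, none had both day 4 arrays lowest. WES1, which also conjugates auxin, read 7.01 and 7.39, then 7.59 and 7.33, then 10.09 and 10.15. GH3.17 read 6.38 and 6.21, then 6.32 and 6.09, then 6.49 and 6.70. Day 4 of both overlapped day 3. GH3.9 read 6.02 and 6.42, then 5.88 and 5.65, then 5.65 and 5.07, so that its day 4 arrays lay below day 3, as in GH3.3, but day 5 did not return. The other, GH3.1, read 3.42 and 3.47, then 3.57 and 3.63, then 3.53 and 3.54, all below the first quartile of all values. Within purine breakdown, the 2 other genes measured, both for enzymes that act after allantoinase, showed no dip. AAH, allantoate amidohydrolase, read 6.32 and 6.47, then 6.67 and 6.58, then 7.18 and 7.10. UGLYAH, ureidoglycine aminohydrolase, read 4.90 and 4.74, then 4.95 and 5.14, then 4.74 and 5.03. The other genes of the route were not analysed here.

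Genes next to the named members along the chromosome were looked up by their order in the TAIR10.1 gene table. The 20 named members lie on all 5 chromosomes, with 4, 4, 5, 5 and 2 on chromosomes 1 to 5. Of 18 measured neighbours of 14 members, 1 had both day 4 arrays lowest (5.6% of all probe sets) and none met the rule (0.229% of all). That neighbour, AT2G29300, is next to AT2G29290 and is also annotated as tropinone reductase-like. It read 4.80 and 4.60 on day 3, 4.42 and 4.55 on day 4, and 6.32 and 6.64 on day 5, so it had hardly a dip but a high day 5. The GDSL lipase AT1G29670, next to AT1G29660, read 10.83 and 10.88, then 9.98 and 10.27, then 10.20 and 10.33. It shared the low day 4 reading of its neighbour but not the return.

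**Figure D4:**
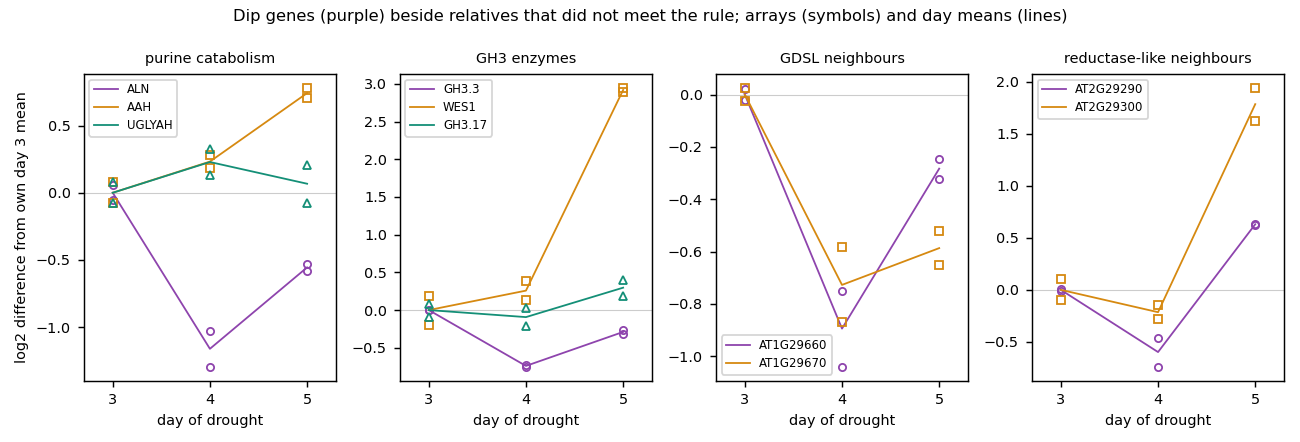
Log2 difference of each array from the same gene's day 3 mean (y axis) by day of drought (x axis) for 4 dip genes, in purple, and for relatives or neighbours; points are arrays and lines join day means. Both day 4 arrays are the lowest in ALN and GH3.3 but not in AAH, UGLYAH, WES1 and GH3.17. The day mean of GH3.17 is nonetheless lowest on day 4, by a small margin. AT1G29670 stays low on day 5.

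Pathway lists for drought, hormones, light, the circadian clock, carbon supply and bud cell types were set beside the members. Of 255 entries in 17 lists, 39 genes were measured and 1, GH3.3, was a member; 4 lists (abscisic acid receptors, brassinosteroid, nitrate, floral identity) had no measured gene and were not analysed here. Of the 38 other genes, 3 were higher and none lower on day 4 than on day 3 by limma (0.268% and 0.233% of all probe sets), with a median of 0.02. From day 4 to day 5, 15 rose and 7 fell (10.4% and 11.6% of all), with a median of 0.15. Those counts were 10 and 15 with poly-A centring, 10 and 3 on omitting the first day 4 replicate, 8 and 3 on omitting the second, and 11 and 3 on omitting day 5 replicate 2. For day 4 against day 3 the count of 3 became 1 on omitting the first day 4 replicate, stayed at 3 on omitting day 3 replicate 2, and was 2 on omitting any other array. None fell and then rose past the threshold, but only 0.233% of all probe sets passed as lower at the first step. Both day 4 arrays were lowest in 4 of the 38, beside 5.6% of all probe sets. The poly-A centring that gave 10 and 15 shifted the median of all probe sets for day 5 minus day 4 by -0.40. Over that step 7.69% of all calls were then higher, so no property of the lists is read from the change in counts.

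In the carbon starvation list 2 of 5 genes had both day 4 arrays lowest (5.6% of all probe sets), AKINBETA1 and, by a gap of only 0.0051, MCCA. In the rapid stress list 1 of 2 did, the calmodulin-like gene CML38, with a gap of 0.14. All its arrays read below 4.37, the first quartile of all values. AKINBETA1, a subunit of the energy-sensing kinase SnRK1, read 8.23 and 8.31 on day 3, 7.82 and 7.94 on day 4, and 8.90 and 8.85 on day 5, a gap of 0.29. Its day 4 minus day 3 difference of -0.39 did not pass (limma adjusted p = 0.276), while from day 4 to day 5 it rose by 0.99 (adjusted p = 0.0014). MCCA, a subunit of methylcrotonyl-CoA carboxylase in leucine breakdown, rose by 0.74 over that step (adjusted p = 0.0081), and IVD, isovaleryl-CoA dehydrogenase of the same route, by 0.57 (adjusted p = 0.0124). Both calls were lost with poly-A centring (0.34 and 0.17) and on omitting either day 4 array or day 5 replicate 2, with adjusted p of 0.0510 to 0.110. None of the 5 passed for day 4 against day 3, and 3 rose from day 4 to day 5 (10.4% of all probe sets rose).

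Over all probe sets, 10.4% rose and 11.6% fell from day 4 to day 5. In the auxin list, 2 of the 3 genes other than GH3.3 rose over that step and none passed for day 4 against day 3. Both rapid stress genes rose over that step, and 2 of 4 abscisic acid response genes did, with 1 falling. The call of the rapid stress gene CML38 was lost with poly-A centring (0.18, limma adjusted p = 0.382). It was also lost on omitting either day 4 array or day 5 replicate 1. That of the abscisic acid response gene LTI30 was lost on omitting day 4 replicate 2. The evening clock gene GI was higher on day 4 than on day 3 and higher again on day 5; the 1 morning clock gene measured, AT5G52660, did not pass in any comparison. The jasmonate gene, JMT, fell from day 4 to day 5, a call lost on omitting either day 4 array or day 5 replicate 2. Over the same step 1 of 2 genes of sulfur and glucosinolate metabolism fell, and neither of the 2 iron and copper genes passed. HYH, the 1 gene of the light and shade list, fell by 0.54 from day 3 to day 5 (limma adjusted p = 0.0266). The call was lost on omitting day 3 replicate 2 (adjusted p = 0.11), day 5 replicate 2 (adjusted p = 0.147) or either day 4 array (adjusted p = 0.0526).

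Markers of bud cell types were read beside the dip. Summed as a mean log2 level, the 6 late pollen genes read 6.20 and 6.47 on day 3, 6.57 and 6.53 on day 4, and 7.30 and 7.72 on day 5. The 5 tapetum genes read 8.64 in both day 3 arrays, 8.69 and 8.76 on day 4, and 8.30 and 7.77 on day 5. The 5 photosynthesis genes read 11.77 and 11.76, then 11.61 and 11.70, then 11.41 and 11.34. The list means were lowest on day 3 for pollen and on day 5 for tapetum and photosynthesis. Single photosynthesis genes differed: 3 of the 5 passed as lower on day 5 than on day 3 (15.9% of all probe sets). LHCB4.2 instead had its highest day mean, 10.99, on day 5. Between days 4 and 5, 5 of 6 pollen genes rose by limma (10.4% of all probe sets rose). Over the same step 2 of 5 tapetum genes fell (11.6% of all fell). The call of the tapetum gene BHLH089 was lost on omitting either day 4 array or day 5 replicate 2. That of the pollen gene ACT12 was lost on omitting day 4 replicate 2. The part of these cell types in the dip or in the day 5 levels of the members was not tested. The 3′ minus 5′ difference of the array's control genes was 2.23 and 1.61 on day 3, 1.68 and 1.66 on day 4, and 1.81 and 1.73 on day 5. It was highest in day 3 replicate 1. Its bearing on the dip was not tested.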

How the data were processed

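RNA of unopened buds was read on 6 single-colour arrays, 2 per day. The authors deposited log2 probe set values, made with RMA and affy per the submitters' processing notes, which give no versions. This method equalises the arrays' distributions, so each level is relative to the other transcripts; depth does not apply and array number limits precision. The table held 22810 probe sets. The 64 controls were left out of the tests. Of the others, 13513 had 1 gene in the platform annotation, 503 several and 8730 none; 13436 matched a RefSeq gene table (TAIR10.1). Differences between days came from limma 3.58.1 under R 4.3.3 (lmFit and eBayes, 3 group means, 3 residual degrees of freedom plus a prior of 4.69), two-sided, with Benjamini-Hochberg adjustment over all 22746 probe sets and a threshold of 0.05. The fit was tested on simulated data. The members and gene lists were chosen with earlier results of these data known. All members with 1 gene are named, with the 3 nearest to the threshold on either side and other probe sets of a member. Up to 3 genes per list are named too, and all 5 measured tapetum genes. The unnamed probe sets shown, the relatives and the neighbours were chosen after their values were seen. The alternatives changed the scaling, the filter, the prior, the gap and the arrays. Promoter motifs were not analysed here.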

Additional observations from a re-analysis of the deposited data

How the results depend on the processing

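Counts depended on scaling and on single arrays. Poly-A centring gave 205 calls for day 4 against day 3 (114 by the deposited values), 11929 for day 5 against day 4 (5020) and 16041 for day 5 against day 3 (6548); it assumes equal control RNA in each sample, which is not recorded here. The share of higher calls went from 53.5% to 32.7% and from 47.3% to 7.69% in the first 2. The 4 arrays of days 3 and 4 alone gave 58. Probe sets of 1 gene alone, which are fewer, gave 46, 2548 and 3439, with 3 members higher and 3 lower. Leaving out each array in turn gave 15 to 58, 1366 to 5427 and 3894 to 5375 calls; for the members, 8 to 16 higher and 4 to 5 lower. The dip rule held for 101 probe sets at a gap of 0.3, 23 at 0.5, 13 at 0.6, 30 with poly-A centring (21 of them members), 56 with cyclic loess (45 members), 44 with median centring (43 members), 20 with 1 gene, 75 when only same-numbered arrays are compared (all 50 members among them by construction), and 58 to 130 without an array, since fewer arrays have to clear it. Replicate numbers were not taken as pairs: correlations of same-numbered deviations were 0.0987, 0.145 and 0.376. With the replicate block the calls were 123, 5827 and 7333, with 18 members higher and 6 lower, and AT4G21870 (limma adjusted p = 0.0413) and 254331_s_at (0.0432) passed. AT4G21870 also passed with a trended prior, poly-A centring or no low means. For single probe sets, day 5 minus day 3 turned sign past the threshold only with poly-A centring: AT3G01960 (-0.47) and AT5G28430 (-0.49). For the 68 single results, 931 of 1008 alternatives kept the side of the threshold, 22 of these with a changed sign of a value that had not passed; 58 lost the call and 17 gained it. The motif search was not run.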
